A study of Mus musculus with 6 samples.

Results

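Prostaglandin synthesis and receptors are represented here by 10 genes, taken by their symbols from a table of 17933 genes measured in mouse kidney. They are the cyclooxygenase genes Ptgs1 and Ptgs2, the terminal synthase genes Ptges, Ptges2, Ptgds and Ptgis, the breakdown enzyme gene Hpgd, and the receptor genes Ptger1, Ptger3 and Ptger4. All 10 were found. RNA came from kidney tissue of 3 stone samples and 3 control samples, taken at day 12, all from wild-type male C57BL/6 mice aged 6 to 8 weeks and weighing 24 to 26 g. Stone mice received glyoxylic acid, an oxalate precursor, at 120 mg/kg into the peritoneum daily for 12 days, which the labels call a model of calcium oxalate kidney stones, and control mice received saline in the same volume. The labels do not state that each sample is a separate mouse, so the p-values reflect the spread of these samples alone, and that spread may be technical.

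Prostaglandins are short-lived lipid signals made from arachidonic acid, which phospholipases free from membranes. Cyclooxygenases turn it into a common intermediate, terminal synthases turn that into prostaglandin E, D, F, prostacyclin or thromboxane, each with receptors of its own, and the dehydrogenase encoded by Hpgd inactivates the products. In the kidney they are known for widening afferent arterioles, for driving renin release, and for opposing salt and water retention in the thick ascending limb and collecting duct, and drugs that block cyclooxygenases can harm a stressed kidney.

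The promoters of 4 of these genes are shown because they carry the contrast in the data: the paired cyclooxygenases, of which Ptgs2 is the inducible form, and the genes with the smallest p-values among the members, Ptges and Ptger4. Each run covers 250 bases before and 30 bases after a transcription start in RefSeq (GRCm38.p6), on the strand of the gene. For Ptgs1 and Ptges that start lies inside the gene span given below. The 5' end of the span is further upstream, and no window at that end is shown. Capitals mark matches to any of 8 motifs searched on both strands.

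Ptgs2, chr1:150099781-150100060, plus strand: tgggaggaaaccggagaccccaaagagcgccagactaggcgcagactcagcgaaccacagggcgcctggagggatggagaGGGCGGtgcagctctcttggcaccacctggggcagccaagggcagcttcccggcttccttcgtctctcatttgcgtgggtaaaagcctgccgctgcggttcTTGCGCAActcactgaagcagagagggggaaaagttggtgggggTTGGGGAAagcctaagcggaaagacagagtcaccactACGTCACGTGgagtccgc
Ptgs1, chr2:36230176-36230455, plus strand: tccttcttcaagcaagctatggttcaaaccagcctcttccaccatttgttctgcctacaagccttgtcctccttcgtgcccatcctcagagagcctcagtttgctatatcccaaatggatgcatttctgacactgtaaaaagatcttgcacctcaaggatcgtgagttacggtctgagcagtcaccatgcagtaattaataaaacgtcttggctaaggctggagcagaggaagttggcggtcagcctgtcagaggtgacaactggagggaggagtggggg
Ptges, chr2:30903268-30903547, minus strand: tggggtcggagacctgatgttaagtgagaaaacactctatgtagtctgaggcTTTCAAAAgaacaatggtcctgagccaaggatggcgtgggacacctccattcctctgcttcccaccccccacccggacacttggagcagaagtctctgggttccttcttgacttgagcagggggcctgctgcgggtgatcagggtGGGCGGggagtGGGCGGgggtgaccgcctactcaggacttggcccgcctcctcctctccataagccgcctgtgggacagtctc
Ptger4, chr15:5244158-5244437, minus strand: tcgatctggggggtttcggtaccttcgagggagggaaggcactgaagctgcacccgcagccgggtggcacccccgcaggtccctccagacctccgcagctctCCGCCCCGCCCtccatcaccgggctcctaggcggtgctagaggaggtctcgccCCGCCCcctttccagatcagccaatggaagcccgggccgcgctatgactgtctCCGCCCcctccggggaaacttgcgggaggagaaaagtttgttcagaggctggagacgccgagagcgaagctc

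The Ptgs2 window held matches to 4 of the 8 motifs. A CRE-type site (TGACGT, which reads ACGTCA on the other strand) and an E-box (CACGTG) overlap just after the start, and they occur in 7.26% and 6.79% of the 32851 mouse promoter windows of this length. C/EBP letters (TTNNGNAA) stood at TTGCGCAA and TTGGGGAA, and a GC box (GGGCGG) lay further upstream. These are common, in 39.3% and 34.7% of windows. The Ptgs1 window, at a start inside the gene span, held no match to any of the 8. Ptges had 1 C/EBP match and 2 GC boxes, and Ptger4 had 4 GC boxes, of which 2 overlap. The other motifs searched were the TATA box (TATAAA, 13.1% of windows), AP-1 (TGANTCA, 7.46%), EGR1 (GCGNGGGCG, 5.3%) and NF-kB (7.94%), and none of them matched in these 4 windows. GC content was 61.4% in the Ptgs2 window and 49.6% in the Ptgs1 window, against a median of 52.5% over all windows. A match describes letters only. RefSeq windows were found for 8 of the 10 genes, and Ptgis and Ptger1 had none.

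Expression is given as FPKM, fragment counts scaled by gene length and library size, so levels can be compared between genes. Sums of FPKM ran from 711768 to 758514 in control samples and from 609705 to 613885 in stone samples, and the depth in fragments is unknown. Kap, an androgen-regulated proximal tubule transcript, made up 19.3% to 23.2% of the sum in controls and 1.18% to 2.26% in stone samples. Fold changes were tested with limma on log2(FPKM + 1), which understates the change of low genes, for the 12319 genes averaging 1 FPKM or more, and adjusted p-values are Benjamini-Hochberg values over all of them, with a threshold of 0.05. The typical tested gene was 0.21 log2 units higher in stone kidneys as deposited, and scaling by the median of ratios moved that median by -0.22. Results of the members are therefore given under both. Those of other genes and of marker lists are as deposited unless stated. Kidney markers were present in every sample: 6 proximal tubule markers summed to 3215 to 3661 FPKM in control and 2114 to 2759 FPKM in stone samples. Of these 3 fell and 1 rose, and 4 and 1 with median-of-ratios scaling. Of the other lists read for cell types, 1 of 3 distal convoluted tubule markers fell and 4 of 5 podocyte markers rose. With median-of-ratios scaling 3 of the podocyte markers rose. Of 4 platelet markers 2 reached the level for testing and 1 rose, and of 4 T cell markers 0 reached it.

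In control kidneys the 10 transcripts spanned low to moderate levels. Ptges2 and Ptger3 were the most abundant, with means of 25.6 and 21.4 FPKM and overlapping ranges, followed by Hpgd at 11.4 FPKM, which was separate from both neighbours in the order. Ptgds (7.51 FPKM), Ptgs1 (6.96 FPKM) and Ptges (5.94 FPKM) came next, and neighbours within this trio overlapped. Ptger1 (3.03 FPKM), Ptgis (1.39 FPKM), Ptger4 (0.8 FPKM) and Ptgs2 (0.307 FPKM) closed the order, where Ptgis and Ptger4 overlapped and the others were separate from their neighbours. In stone kidneys Ptges2 had the highest mean, 21.0 FPKM, with a range overlapping that of Hpgd, and Ptgs2 the lowest, 1.56 FPKM, though Ptger1 lay under Ptgs2 in stone sample 1. In between, Hpgd, Ptges, Ptgs1, Ptger3 and Ptgds lay between 17.5 and 11.5 FPKM on average, with each range overlapping that of its neighbour. Ptger1, Ptgis and Ptger4 followed at 4.53, 3.22 and 2.77 FPKM, again with overlapping neighbours, and Ptgs2 was separate from Ptger4.

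Of the 9 members tested, 6 rose, 2 fell and 1 did not pass. Over all tested genes 43.5% rose and 13.9% fell, 57.4% in either direction. After median-of-ratios scaling 4 members rose and 2 fell, where 22.5% of all genes rose and 26.2% fell (48.7% in either direction). Quantile normalization called 2 members higher and 2 lower, against 22.3% and 25.5% of all genes (47.7% together). With FPKM sums made equal 6 rose and 0 fell, against 68.5% and 6.47% (75.0% together). The typical tested gene was then 0.45 log2 units higher in stone kidneys, so calls of lower genes under that scaling are read against this shift. Without stone sample 3, which stood apart in genes of the collecting duct and inner medulla, 5 rose and 0 fell, against 35.8% and 11.7% (47.5% together). The median log2 fold change of the tested members was 0.55 as deposited and 0.31 after scaling, against 0.21 and -0.01 over all tested genes. Ptgs2 was under the level for testing. Counting all 10, 7 were higher in every stone sample than in any control sample and 1 was lower in every one, as were 41.3% and 13.1% of genes above 0 in any sample (54.4% together).

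**Figure D1:**
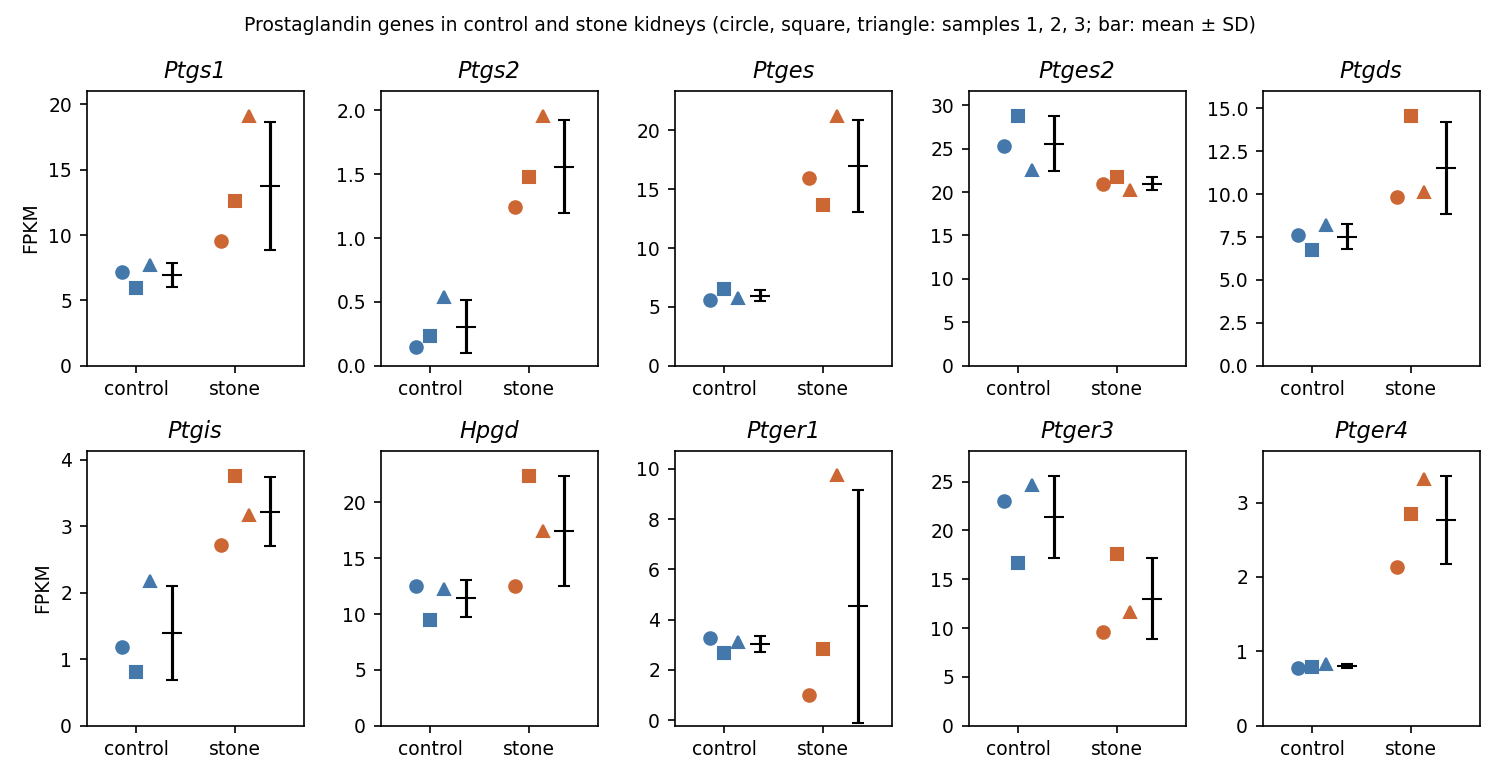
FPKM of each of the 10 genes (y axis, from 0) in control and stone kidneys (x axis), with samples 1, 2 and 3 as circle, square and triangle and the mean ± SD beside them. Ptgs1, Ptgs2, Ptges, Ptgds, Ptgis, Hpgd and Ptger4 are higher in every stone sample than in any control sample, Ptges2 is lower in every stone sample, and Ptger1 ranges from 0.99 to 9.75 FPKM among stone samples.

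Both cyclooxygenase transcripts stood higher in stone kidneys. Ptgs1, the form most cells express at rest, lies on chromosome 2 from 36216742 to 36258593. Control samples 1 to 3 held 7.18, 5.95 and 7.74 FPKM of Ptgs1, and stone samples 1 to 3 held 9.52, 12.62 and 19.15 FPKM. The groups did not overlap, and stone sample 3 was the highest. Means were 6.96 ± 0.916 and 13.8 ± 4.92 FPKM (SD, n = 3 each), a log2 fold change of 0.85 with an SE of 0.224 (adjusted p = 0.0151 by limma). Median-of-ratios scaling gave 0.61 (adjusted p = 0.0366 by limma). The Ptgs1 call was lost after quantile normalization, at 0.57 (limma, adjusted p = 0.0522), and, at 0.75, when control sample 2 was left out (limma, adjusted p = 0.0565).

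Ptgs2, the inducible form and the target of selective anti-inflammatory drugs, lies on chromosome 1 from 150100031 to 150108234. Ptgs2 stood at 0.15, 0.23 and 0.54 FPKM in control samples and 1.24, 1.48 and 1.96 FPKM in stone samples. All stone values exceeded all control values, and the means, 0.307 ± 0.206 and 1.56 ± 0.367 FPKM (SD, n = 3 each), gave a 5.09-fold difference. With the level for testing lowered to a mean of 0.5 FPKM, Ptgs2 was called higher, at a log2 fold change of 0.97 (limma, adjusted p = 0.00234), as were 42.6% of the 13224 genes then tested. With median-of-ratios scaling as well, an alternative chosen after the data were seen, the value was 0.87 (limma, adjusted p = 0.00338), where 22.5% of genes were called higher.

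The balance of the cyclooxygenases within a sample does not depend on sample scaling. The ratio of Ptgs2 to Ptgs1 was 0.0209, 0.0387 and 0.0698 in control samples and 0.13, 0.117 and 0.102 in stone samples. Ptgs2 therefore remained the minor form throughout, and the groups did not overlap. The mean log2 ratio was 1.6 higher in stone kidneys (exact two-sided permutation test, p = 0.1, the smallest that 3 against 3 samples allow). With 1 FPKM added to both genes before the ratio the difference was 0.13 (exact permutation p = 0.4). Ptgs2 lay under 1 FPKM in every control sample.

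The macula densa, where Ptgs2 is known to be expressed and to drive renin release, and renin-producing cells were viewed through Nos1, Ren1 and Akr1b7. Ren1, which encodes renin, averaged 18.5 ± 2.96 FPKM in control and 57.4 ± 17.1 FPKM in stone kidneys (SD, n = 3 each) and rose, with a log2 fold change of 1.55 (limma, adjusted p = 0.000764). Nos1, which marks the macula densa, was under the level for testing at 0.15 and 0.26 FPKM on average. Summed FPKM of the 3 genes ran from 17.5 to 23.5 in controls and from 48.8 to 79.2 in stone kidneys. Most of that sum was Ren1, so a percentage of it is close to a ratio to Ren1. Ptgs2 as a percentage of that sum, a scale chosen after the values were seen, was 0.637, 1.31 and 2.92 in control and 1.57, 2.88 and 4.01 in stone samples, and the groups overlapped. In RNA of bulk kidney tissue, more cells of a type and more RNA per cell cannot be told apart, and the part of these cells in the Ptgs2 difference was not tested.

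**Figure D2:**
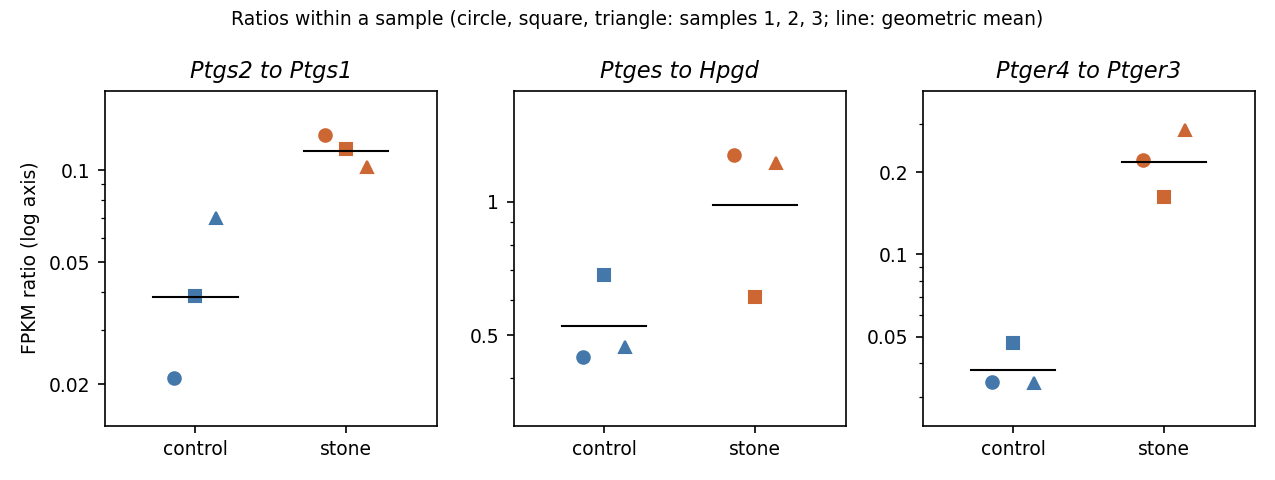
FPKM ratios within each sample (y axis, log scale) for 3 gene pairs in control and stone kidneys (x axis), with samples 1, 2 and 3 as circle, square and triangle and the geometric mean as a line. Ptgs2 to Ptgs1 and Ptger4 to Ptger3 are higher in every stone sample, while Ptges to Hpgd overlaps because stone sample 2, at 0.61, lies under control sample 2, at 0.685.

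Among the terminal synthases the inducible enzyme of prostaglandin E rose, while its constitutive counterpart was slightly lower. Ptges encodes microsomal prostaglandin E synthase-1, which is coupled to Ptgs2 in inflamed tissue. Its gene spans chromosome 2, minus strand, from 30889471 to 30931020. Ptges measured 5.59, 6.5 and 5.74 FPKM in control samples and 15.93, 13.66 and 21.26 FPKM in stone samples. The groups were far apart, with stone sample 3 the highest. Ptges rose by 1.35 log2 units (SE 0.15), with a 95% interval from 1.0 to 1.7 (limma, adjusted p = 0.000414), from 5.94 ± 0.488 to 16.9 ± 3.9 FPKM (SD, n = 3 each). With median-of-ratios scaling it rose by 1.12 (adjusted p = 0.00081 by limma), and the Ptges call held in every alternative run. Ptges stood at percentile 96.2 of all tested genes by fold change.

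Ptges2 encodes the membrane-associated prostaglandin E synthase-2, a constitutive protein that also binds heme (chromosome 2, 32395890 to 32402740). It measured 25.34, 28.81 and 22.58 FPKM in control samples and 20.93, 21.74 and 20.22 FPKM in stone samples. Stone values were lower than all control values by a small margin, and Ptges2 fell by 0.27 log2 units (adjusted p = 0.0392 by limma). With median-of-ratios scaling it fell by 0.51 (adjusted p = 0.00671 by limma). With equal FPKM sums the value was -0.00 (adjusted p = 0.995 by limma), where the median of all tested genes was 0.45. The Ptges2 call was also lost with no filter on low values (limma, adjusted p = 0.0546) and when control sample 1 or 2 or stone sample 1, 2 or 3 was left out, with limma adjusted p-values of 0.0908, 0.0914, 0.0777, 0.0694 and 0.102.

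Ptgis, the prostacyclin synthase gene of endothelial and smooth muscle cells (chromosome 2, 167203194 to 167252150), rose. It measured 1.18, 0.81 and 2.18 FPKM in control samples and 2.72, 3.76 and 3.17 FPKM in stone samples, with no overlap. The log2 fold change was 0.85 (limma, adjusted p = 0.0122), and 0.68 with median-of-ratios scaling (adjusted p = 0.0277 by limma), but the call was lost after quantile normalization, at 0.46 (limma, adjusted p = 0.075). Of 6 endothelial markers 4 rose (3 with median-of-ratios scaling), and their summed FPKM was 59.9 to 99.5 in controls and 94.3 to 151 in stone kidneys. All 6 fibroblast and pericyte markers rose, with sums of 25.6 to 39.3 and 91.8 to 156. Ptgis as a percentage of the endothelial sum stood at 1.93, 1.35 and 2.19 in control and 2.88, 3.23 and 2.1 in stone samples. Relative to the fibroblast and pericyte sum its percentage was 3.76, 3.16 and 5.55 in controls against 2.96, 2.4 and 2.14 in stone samples. Ptgis thus overlapped between the groups on the first scale and was lower in stone kidneys on the second, which were both chosen after the values were seen, and the part of these cells was not tested.

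Ptgds, the lipocalin-type prostaglandin D synthase, a secreted protein that also carries small lipids (chromosome 2, 25466709 to 25470110), was at 7.6, 6.74 and 8.19 FPKM in control samples and 9.82, 14.59 and 10.14 FPKM in stone samples. It rose without overlap, by 0.54 log2 units (adjusted p = 0.018 by limma). The Ptgds call did not hold with median-of-ratios scaling, at 0.31 (adjusted p = 0.106 by limma), or quantile normalization, at 0.25 (adjusted p = 0.184 by limma). Leaving out control sample 2 also lost it, at 0.47 (adjusted p = 0.063 by limma).

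Hpgd, the enzyme that begins prostaglandin breakdown, lies on chromosome 8 from 56294552 to 56321046 and was called higher by a narrow margin. It measured 12.5, 9.49 and 12.22 FPKM in control samples and 12.52, 22.41 and 17.49 FPKM in stone samples. Stone sample 1 exceeded control sample 1 only in the second decimal. Hpgd rose by 0.55 log2 units (adjusted p = 0.0486 by limma). Median-of-ratios scaling gave 0.31 (adjusted p = 0.195 by limma), and the Hpgd call was also lost after quantile normalization, with a mean of 0.5 FPKM as the filter and with no filter (adjusted p = 0.219, 0.0509 and 0.0804 by limma). Leaving out any sample other than stone sample 1 lost the call, with limma adjusted p-values of 0.0725, 0.151 and 0.0771 without control samples 1 to 3 and 0.129 and 0.1 without stone samples 2 and 3. The ratio of Ptges to Hpgd was 0.447, 0.685 and 0.47 in control samples and 1.27, 0.61 and 1.22 in stone samples. Ptges exceeded Hpgd in stone samples 1 and 3 and in no control sample, and the mean log2 ratio was 0.9 higher in stone kidneys (exact two-sided permutation test, p = 0.2).

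**Figure D3:**
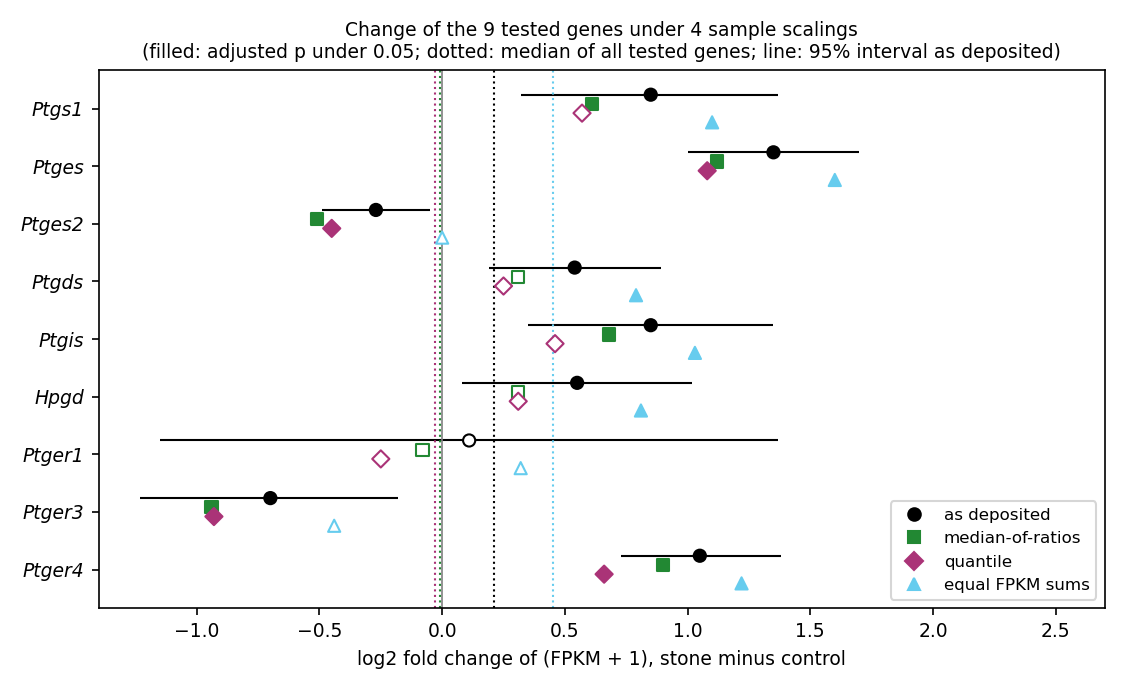
Log2 fold change of FPKM + 1, stone minus control (x axis), for the 9 tested genes (y axis) as deposited, after median-of-ratios scaling, after quantile normalization and with equal FPKM sums. Filled symbols passed an adjusted p of 0.05, black lines are 95% intervals as deposited, and dotted lines mark the median of all tested genes: Ptges and Ptger4 are filled in all 4, Ptges2 and Ptger3 in all but equal FPKM sums, and Ptger1 in none.

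Of the 3 prostaglandin E receptor genes among the members, Ptger4 rose, Ptger3 fell and Ptger1 did not pass. Ptger4 encodes EP4, which raises cyclic AMP and is found on renin cells, vessels and macrophages, and lies on chromosome 15 from 5233399 to 5244187. It measured 0.78, 0.79 and 0.83 FPKM in control samples and 2.14, 2.85 and 3.32 FPKM in stone samples. Control values were nearly equal, and every stone value was well above them. Means of 0.8 ± 0.0265 and 2.77 ± 0.594 FPKM (SD, n = 3 each) gave a log2 fold change of 1.05 with an SE of 0.139 (adjusted p = 0.000843 by limma). With median-of-ratios scaling it was 0.9 (adjusted p = 0.00109 by limma). Ptger4 kept its call in every alternative run.

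Markers of macrophages, like those of endothelium, fibroblasts and pericytes, were mostly higher in stone kidneys as deposited. Of 6 macrophage markers 5 rose, and their sum went from between 64.6 and 71.7 FPKM to between 188 and 490 FPKM. In stone samples 1 to 3 the sum was 188, 490 and 311 FPKM, highest in sample 2, while Ptger4 was highest in sample 3. Csf1r, a defining receptor of macrophages, was the marker that did not pass, at 20.2 ± 2.46 and 20.3 ± 7.15 FPKM (limma, adjusted p = 0.888). Ptger4 as a percentage of the macrophage sum, a scale chosen after the values were seen, stood at 1.09, 1.22 and 1.18 in control and 1.14, 0.582 and 1.07 in stone samples, and the groups overlapped. Relative to the endothelial sum its percentage was 1.27, 1.32 and 0.835 in control and 2.27, 2.45 and 2.2 in stone samples, higher in each. Which cells carried the Ptger4 transcripts was not tested.

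Ptger3 encodes EP3, which lowers cyclic AMP and is known as a main prostaglandin E receptor of the thick ascending limb. It lies on chromosome 3 from 157566821 to 157644758. Ptger3 measured 22.97, 16.65 and 24.63 FPKM in control samples and 9.64, 17.62 and 11.68 FPKM in stone samples. The groups overlapped, since stone sample 2 lay above control sample 2. It fell by 0.70 log2 units with an SE of 0.223 (adjusted p = 0.0299 by limma), and by 0.94 with median-of-ratios scaling (adjusted p = 0.00774 by limma). The Ptger3 call was lost once FPKM sums were made equal (adjusted p = 0.116 by limma), with no filter on low values (limma, adjusted p = 0.0533), and when control sample 1 or 3 or stone sample 1 or 3 was left out (limma, adjusted p = 0.0882, 0.0922, 0.0754 and 0.0735).

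Several thick ascending limb transcripts were also lower in stone kidneys. Of 5 markers 3 fell and 0 rose (1 and 0 with equal FPKM sums), and the sum was 2416, 2072 and 2482 FPKM in control and 1217, 2173 and 1602 FPKM in stone samples, so that stone sample 2 was the highest of its group in both. Slc12a1, the salt cotransporter that loop diuretics block, fell from 281 ± 81.1 to 135 ± 57.9 FPKM (SD, n = 3 each; limma, adjusted p = 0.024), a call lost with equal FPKM sums and without stone sample 3, at -1.10 (adjusted p = 0.0517 by limma). Umod and Cldn16 did not pass, at log2 fold changes of -0.40 and 0.18 (limma, adjusted p = 0.129 and 0.396). With median-of-ratios scaling Umod fell, at -0.66 (limma, adjusted p = 0.0273). Most of the marker sum was Umod, so a percentage of it is close to a ratio to Umod. Ptger3 as a percentage of the summed markers, a scale chosen after the values were seen, stood at 0.951, 0.803 and 0.992 in control and 0.792, 0.811 and 0.729 in stone samples. These ranges overlapped, and the part of this segment in the fall of Ptger3 was not tested. The ratio of Ptger4 to Ptger3 was 0.034, 0.0474 and 0.0337 in control samples and 0.222, 0.162 and 0.284 in stone samples. Its mean log2 value was 2.52 higher in stone kidneys (exact two-sided permutation test, p = 0.1, the smallest possible), and 1.76 higher with 1 FPKM added to both genes.

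Ptger1 encodes EP1, which signals through calcium and is known from the collecting duct. It measured 3.29, 2.69 and 3.11 FPKM in control samples and 0.99, 2.84 and 9.75 FPKM in stone samples. Control samples were close together, while stone samples lay on both sides of them. The difference was 0.11 log2 units with a 95% interval from -1.15 to 1.37 (limma, adjusted p = 0.872), so changes of more than 1 log2 unit in either direction remain within the interval. Without stone sample 3 the value was -0.54 (limma, adjusted p = 0.131). Ptger1 lies on chromosome 8 from 83666644 to 83672756. No source used here states whether strand was used in assigning fragments, so the values of Ptger1 are uncertain.

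Transcripts of the inner medulla were read beside Ptger1. A list of 6 genes, chosen after the values were seen, held the urea transporter Slc14a2, the water channel Aqp4, the osmolyte genes Akr1b3, Slc5a3 and Slc6a12, and Cryab. Adjusted p-values of the 5 tested ran from 0.25 for Slc14a2 to 0.812 for Aqp4 by limma. Without stone sample 3, Slc14a2 and Akr1b3 passed (adjusted p = 0.0147 and 0.00991 by limma). The summed FPKM of the list was 266, 204 and 256 in control and 128, 304 and 919 in stone samples 1 to 3. Slc14a2 measured 17.78, 9.31 and 16.69 FPKM in control and 0.2, 4.61 and 25.79 FPKM in stone samples. Aqp4 measured 7.45, 4.95 and 14.13 FPKM in control and 0.99, 4.88 and 34.61 FPKM in stone samples. Stone sample 1 was thus the lowest and stone sample 3 the highest of all 6 samples for both genes, as for Ptger1. Not every gene of the list did this: Slc5a3 measured 7.92, 16.33 and 14.98 FPKM in stone samples 1 to 3, highest in stone sample 2. Ptger1 as a percentage of the summed list stood at 1.24, 1.32 and 1.21 in control and 0.775, 0.934 and 1.06 in stone samples, lower in each stone sample. In stone sample 3 most of that sum was Akr1b3 and Cryab, at 338.88 and 502.63 FPKM. The part of medulla in these values was not tested.

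The summed markers of collecting duct principal cells were also highest in stone sample 3, at 320, 305 and 324 FPKM in control and 349, 366 and 727 FPKM in stone samples. Of the 7, 4 rose and 1 fell, and 1 and 1 with median-of-ratios scaling. Aqp2, the vasopressin-regulated water channel, measured 78.01, 66.04 and 75.82 FPKM in control and 107.22, 119.92 and 317.32 FPKM in stone samples. Aqp2, Avpr2 and Fxyd4 were highest in stone sample 3, while Scnn1b, Scnn1g and Hsd11b2 were highest in stone sample 1, with Hsd11b2 at 92.92, 88.67 and 79.44 FPKM in stone samples, and Aqp3 was lower in every stone sample. Ptgs1, which the collecting duct is known to express, was also highest in stone sample 3. The percentage of that summed list was for Ptgs1 2.24, 1.95 and 2.39 in control and 2.73, 3.45 and 2.63 in stone samples, and for Ptges 1.75, 2.13 and 1.77 in control and 4.57, 3.73 and 2.92 in stone samples. On this scale, also chosen after the values were seen, Ptgs1 and Ptges were higher in every stone sample. Ptger1 on the same scale stood at 1.03, 0.881 and 0.958 in control and 0.284, 0.776 and 1.34 in stone samples, and the groups overlapped. Without stone sample 3, the log2 fold changes of Ptgs1 and Ptges were 0.60 and 1.18 (adjusted p = 0.0168 and 0.000419 by limma), and Ptgs1 and Ptges were still called higher. The part of collecting duct cells in these differences was not tested.

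**Figure D4:**
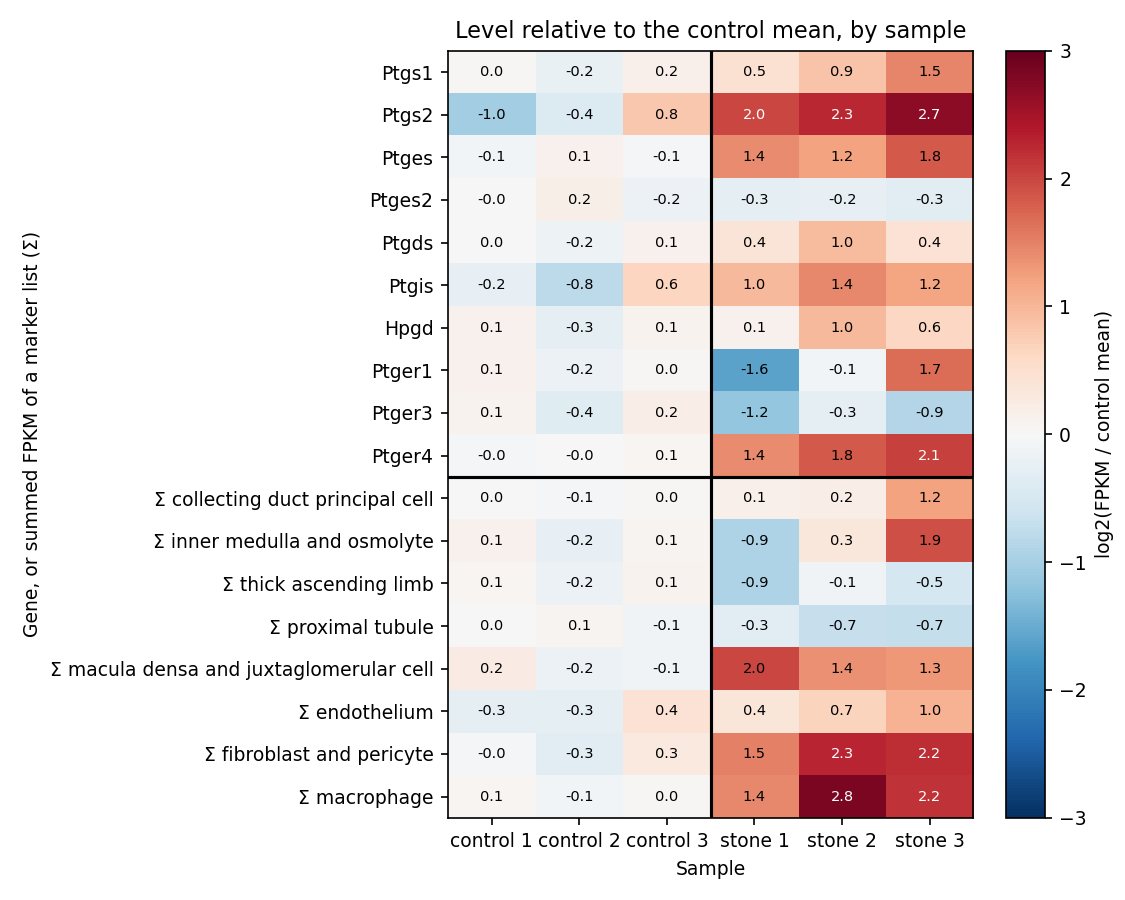
Log2 of FPKM over the control mean (colour and printed values) in each of the 6 samples (x axis) for the 10 genes and, under the line, for the summed FPKM of 8 marker lists (y axis). Ptger1 and the summed inner medulla list share a low value in stone sample 1 and a high one in stone sample 3, and Ptger3 and the thick ascending limb list are both lowest in stone sample 1.

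The genes around these 10 in the pathway were read from a list of 33, of which 24 reached the level for testing. Of these 10 rose and 3 fell, where 43.5% and 13.9% of all tested genes did. After median-of-ratios scaling 9 rose and 3 fell, where 22.5% of all tested genes rose and 26.2% fell. Their median log2 fold change was 0.36, and 0.14 after scaling, against 0.21 and -0.01 over all tested genes. The share called in either direction is near that of all tested genes, 57.4% as deposited and 48.7% after scaling. By that count the list does not stand out. After scaling it held more rises and fewer falls than those shares, a difference that was not tested. The genes that moved are described by step.

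Release of arachidonic acid involved 12 genes, of which 7 were tested, 2 rose and 1 fell. Pla2g4a, the cytosolic phospholipase A2 that supplies cyclooxygenases, measured 2.34, 1.98 and 2.33 FPKM in control and 3.66, 4.25 and 5.31 FPKM in stone samples, a log2 fold change of 0.74 (limma, adjusted p = 0.00283). Pla2g5, a secreted phospholipase A2, went from 3.28 ± 0.201 to 11.8 ± 2.21 FPKM (SD, n = 3 each; limma, adjusted p = 0.000124). Both were without overlap and kept their calls after median-of-ratios scaling. Pla2g6, a calcium-independent phospholipase, fell by 0.19 (limma, adjusted p = 0.0411) and stood at 0.06 with equal FPKM sums. That call was lost without control sample 1 or 2 or any 1 stone sample (limma, adjusted p of 0.062 to 0.139). Pla2g12a, Plaat3, Mgll and Pla2g4b did not pass. Leaving out control sample 2 brought in Mgll, at 0.40 (limma, adjusted p = 0.0469), and Plaat3, at 0.38 (limma, adjusted p = 0.0407), and leaving out stone sample 1 brought in Pla2g4b, at 0.47 (limma, adjusted p = 0.0351).

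Of 6 tested synthases 2 rose and 1 fell, and of 5 reductases 2 rose and 1 fell. Akr1c18, an aldo-keto reductase with prostaglandin F synthase activity that also acts on progesterone, measured 36.35, 27.65 and 20.79 FPKM in control and 0.22, 3.57 and 1.23 FPKM in stone samples. It fell by 3.62 log2 units (adjusted p = 0.000642 by limma), and no stone value came near a control value. Akr1b8, another aldo-keto reductase, rose by 2.27 (limma, adjusted p = 0.000221). Cbr1, a carbonyl reductase that converts prostaglandin E to F and acts on many other carbonyls, measured 33.87, 38.31 and 29.2 FPKM in control and 164.45, 204.23 and 183.04 FPKM in stone samples, a log2 fold change of 2.41 (limma, adjusted p = 1.7e-05). Its relative Cbr3 rose from 1.03 ± 0.667 to 7.84 ± 1.08 FPKM (limma, adjusted p = 0.000297). Near-identical relatives exist among the aldo-keto reductases, so fragments may be shared between their genes and these values are uncertain.

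Akr1b3, aldose reductase, which has prostaglandin F synthase activity and makes the osmolyte sorbitol, measured 67.83, 56.67 and 56.95 FPKM in control and 34.53, 44.4 and 338.88 FPKM in stone samples. Stone sample 3 was far above all others. The log2 fold change was 0.42 (limma, adjusted p = 0.664), and without stone sample 3 it was called lower, at -0.61 (limma, adjusted p = 0.00991). Cbr2 showed a like outlying value, at 4.03, 2.14 and 3.29 FPKM in control and 1.57, 3.81 and 15.89 FPKM in stone samples, and did not pass (limma, adjusted p = 0.475). Ptges3, the cochaperone p23 first described as a cytosolic prostaglandin E synthase, rose by 0.36 (limma, adjusted p = 0.0024), a call lost with median-of-ratios scaling, at 0.11 (adjusted p = 0.158 by limma). Tbxas1, the thromboxane synthase, and Prxl2b, which makes prostaglandin F in the brain, did not pass, at log2 fold changes of 0.05 and -0.39 (limma, adjusted p = 0.769 and 0.161). Hpgds, the hematopoietic prostaglandin D synthase, was under the level for testing, at 0.4, 0.22 and 0.49 FPKM in control and 0.91, 1.8 and 1.44 FPKM in stone samples without overlap. With the level lowered to a mean of 0.5 FPKM Hpgds was called higher, at 0.79 (limma, adjusted p = 0.00649). Of the mast cell markers analysed, Cma1, Cpa3 and Tpsb2 were between 0 and 0.18 FPKM in every sample, and Kit, which other kidney cells can also express, was between 3.14 and 4.28 FPKM. Hpgds as a percentage of the macrophage sum, a scale chosen after the values were seen, was 0.558, 0.341 and 0.698 in control and 0.485, 0.367 and 0.462 in stone samples, and the groups overlapped. Which cells carried Hpgds was not tested.

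Ptgr2, a gene of the later breakdown step, was lower in stone kidneys as deposited, while both carrier genes were higher. Ptgr2, which reduces the inactive product of the Hpgd reaction, fell from 67.0 ± 3.21 to 49.6 ± 2.54 FPKM (SD, n = 3 each; limma, adjusted p = 0.00157). With equal FPKM sums that call was lost (adjusted p = 0.11 by limma). Ptgr1, a related reductase, did not pass at -0.07 (limma, adjusted p = 0.737). Slco2a1, the carrier that takes prostaglandins into cells for breakdown, measured 9.08, 9.56 and 9.7 FPKM in control and 13.17, 23.95 and 20.23 FPKM in stone samples, and rose by 0.91 (limma, adjusted p = 0.00592). Abcc4, the pump that exports prostaglandin E among many other anions, rose from 8.89 ± 1.16 to 24.4 ± 2.22 FPKM (limma, adjusted p = 0.000107). Both carriers were higher in every stone sample and kept their calls in each scaling.

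Receptors beyond the 3 members were mostly scarce. Ptgir, the prostacyclin receptor gene, measured 0.4, 0.27 and 0.78 FPKM in control and 1.36, 1.87 and 1.52 FPKM in stone samples, and rose by 0.81 (limma, adjusted p = 0.00528), a call lost after quantile normalization at 0.41 (limma, adjusted p = 0.0567). Ptgir and Ptgis, receptor and synthase of prostacyclin, were thus both higher in every stone sample. Ptgfr, the prostaglandin F receptor gene, averaged 4.94 ± 0.598 and 6.16 ± 0.69 FPKM and missed the threshold (adjusted p = 0.067 by limma). It passed when control sample 3 or stone sample 3 was left out (adjusted p = 0.0335 and 0.0494 by limma). Tbxa2r, the thromboxane receptor gene, did not pass at 0.17 (limma, adjusted p = 0.235). Ptger2, which encodes EP2, lay between 0 and 0.17 FPKM in all samples, and the prostaglandin D receptor genes Ptgdr and Ptgdr2 were listed at 0 in all 6. Ptgfrn, which encodes a regulator of the prostaglandin F receptor, rose by 0.97 (limma, adjusted p = 0.00386).

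**Figure D5:**
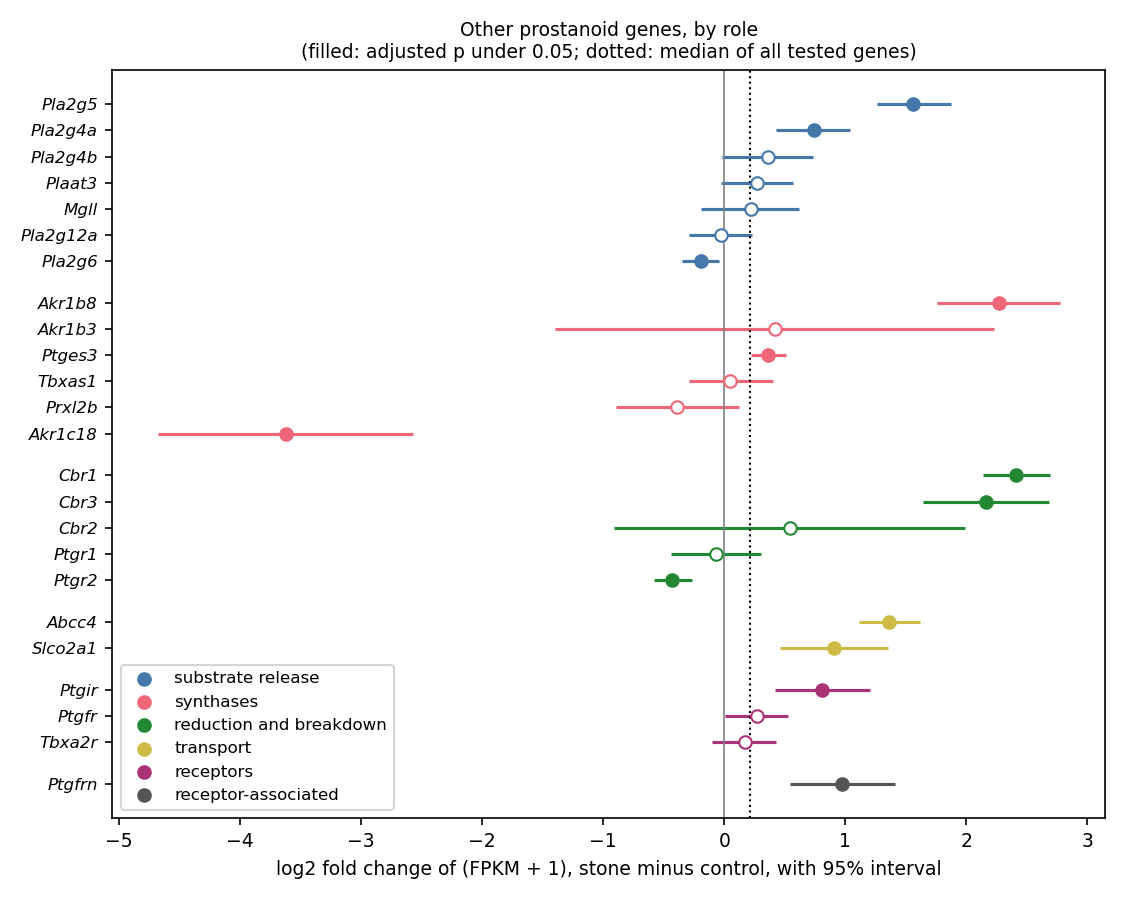
Log2 fold change of FPKM + 1, stone minus control, with 95% intervals (x axis) for the 24 tested genes of the wider pathway (y axis), coloured by step. Filled symbols passed an adjusted p of 0.05 and the dotted line marks the median of all tested genes, 0.21: Cbr1, Akr1b8 and Cbr3 lie furthest right and Akr1c18, at -3.62, furthest left, while Akr1b3 and Cbr2 have the widest intervals on both sides of 0.

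Genes with the most similar profiles were sought for the 3 members with the smallest p-values, as the smallest root mean square distance between mean-centred log2(FPKM + 1) profiles over the 6 samples. For Ptges these were Gm52787, Mid1ip1 and Lgals3bp, at distances of 0.0813, 0.0957 and 0.1 log2 units, and 2 genes lay within 0.1. For Ptger4 they were Krt8, a keratin gene of simple epithelia, Selenon and Myl12a, at 0.049, 0.0512 and 0.0524, among 45 genes within 0.1. Krt8 averaged 71.4 FPKM in control and 150 FPKM in stone samples, and Ptger4 0.8 and 2.77 FPKM. The log2(FPKM + 1) scale understates the change of low genes, so this closeness holds on that scale and not for fold changes of FPKM. For Ptgis they were Daam2, Dapk2 and Rerg, at 0.049, 0.0596 and 0.0664, among 13 within 0.1.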

How the data were processed

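RNA of 6 mouse kidney samples was read from the authors' deposited table of FPKM, 1 column per sample, with 0 columns of other samples. Libraries kept the strand through dUTP, per the labels' protocols. Per the submitters' processing notes, HISAT2 2.0.4 and the build GRCm38.p6 were used. No source used here names the quantifier, the annotation or whether strand was used in counting. Since FPKM hold no read numbers, depth is unknown and count models were not applied.

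The comparison of stone with control used limma 3.58.1 under R 4.3.3 (eBayes with trend, two-sided) on log2(FPKM + 1) over 12319 genes. 5614 genes were under the mean of 1 FPKM. Ratios were tested by exact permutation. The code was tested on simulated data. Alternatives changed the scaling, pseudocount, filter, weights, replicate block and samples used. Named genes are the members, the wider pathway list, the marker lists, Kap, and the 3 genes nearest in profile to each of the 3 members with the smallest p; the inner medulla list was chosen after its values were seen. A result on a further gene is not reported here. Fam213b and Pla2g16 were matched to Prxl2b and Plaat3 by RefSeq synonyms, and the mast cell marker Mcpt4 was not analysed here. Members and lists were chosen with earlier results of these data known. Gene positions and promoters are from RefSeq and gene strands from GENCODE M21, on GRCm38.p6.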

Additional observations from a re-analysis of the deposited data

How the results depend on the processing

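Over all tested genes, the calls numbered 5356 higher and 1711 lower as deposited, 2776 and 3222 after median-of-ratios scaling, 2744 and 3138 after quantile normalization, 8440 and 797 with equal FPKM sums, and 2980 and 3262 with a mean of 0.5 FPKM and median-of-ratios scaling together, an alternative chosen after the data were seen. Leaving out 1 sample gave 4265 to 5242 higher and 1360 to 1697 lower. Members called higher went from 6 to 2 after quantile normalization. Members called lower went from 2 to 0 with equal FPKM sums or no filter and to 1 with the replicate block. Leaving out 1 sample gave 3 to 6 members higher, with the fewest without control sample 2, and 0 to 1 lower. The wider list had 1 gene lower instead of 3 with equal FPKM sums. With 1 FPKM added to both genes the log2 differences of Ptgs2 to Ptgs1 and Ptger4 to Ptger3 were 0.13 and 1.76 in place of 1.6 and 2.52. Samples sharing a replicate number did not deviate together across genes (correlations of 0.01, -0.22 and -0.04), so the numbers were not taken as pairs. With replicate numbers as a block 4861 genes were higher and 1517 lower, and the calls of Hpgd (adjusted p = 0.0761), Ptger3 (0.0563) and Pla2g6 (0.0947) were lost by limma. The cause was not tested for any of these.

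Signs turned for genes that were not called, and for Pla2g6. Ptger1 was at -0.08 after median-of-ratios scaling with either filter, and -0.25 after quantile normalization. Median-of-ratios scaling with either filter gave -0.02 for Mgll and -0.17 for Tbxas1. Quantile normalization gave -0.05 for Pla2g4b, -0.00 for Mgll, -0.26 for Tbxas1, -0.06 for Ptgfr and -0.21 for Tbxa2r. Equal FPKM sums gave 0.06 for Pla2g6, 0.23 for Pla2g12a and 0.19 for Ptgr1. Array weights gave -0.02 for Akr1b3 and 0.06 for Ptgr1. Leaving out 1 sample at a time gave from -0.54 (stone 3) to 0.68 for Ptger1, from -0.11 to 0.08 for Pla2g12a (above 0 without control 2, at 0.01, and stone 2), from -0.09 to 0.16 for Tbxas1 (under 0 without control 1, at -0.01, and stone 1), from -0.61 (stone 3) to 1.02 for Akr1b3, from -0.21 (stone 3) to 1.14 for Cbr2 and from -0.15 to 0.10 for Ptgr1 (above 0 without control 3, at 0.02, and stone 1). Array weights brought in Prxl2b, at -0.55 (limma, adjusted p = 0.0252). FPKM hold no depth, so the precision of low values such as Ptgs2 and Hpgds cannot be given.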
